A study of Mus musculus with 6 samples.

Results

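Immediate early genes are a small group that cells transcribe within minutes of a stimulus, before any new protein is needed, and that fall silent again soon after. The intestine of 6 mice was followed here for 10 of them, the rows named Fos, Fosb, Jun, Junb, Egr1, Atf3, Ier2, Dusp1, Zfp36 and Btg2 among the 23402 gene symbols of the deposited table. The rule lists them by name. All 10 rows were present and above 0 in every library, and 9 of them passed the filter on low values described below.

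RNA was sequenced from whole tissue labelled as terminal ileum, taken at 6 weeks of age on day 6 of dextran sodium sulfate (DSS), a polysaccharide given in drinking water that injures the intestinal epithelium. The mice labelled KO (n = 3) carried floxed Il17ra alleles and a Cre recombinase driven by Atoh1, written Il17rafl/fl;Atoh1-cre+ in the labels. Their littermates, labelled WT (n = 3), carried the same floxed alleles without Cre (Il17rafl/fl;Atoh1-cre-) and received DSS too. Il17ra encodes a subunit of the receptor for interleukin-17, and Atoh1 is the transcription factor of the secretory epithelial lineage, so the comparison asks what losing this receptor in secretory cells does during DSS exposure. No mice without DSS were analysed here. Libraries are called KO1 to KO3 and WT1 to WT3 after the number in their labels, and each is 1 mouse.

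The levels are in FPKM, fragments per kilobase of transcript after scaling to the library's depth. Steps between the lowest values put the libraries at about 8240000 to 9470000 fragments, and between 16317 and 16547 symbols were above 0 in each. Il17ra itself stood at 7.93, 8.36 and 6.07 FPKM in the KO libraries and at 6.04, 5.91 and 6.53 FPKM in the WT libraries, so this gene gave no check of the labels in whole tissue, and directions are given for the libraries as they were labelled. Fabp6, the ileal bile acid binding protein, ranged over 0.316 to 2.41 FPKM in KO and 0.316 to 9.79 FPKM in WT libraries, and Slc10a2, the ileal bile acid transporter, stayed under 2 FPKM. Both of these markers of the distal small intestine were thus low or near 0 in all 6 libraries, with Fabp6 highest in WT3. Slc51a, another bile acid transporter gene, ranged over 103 to 136 FPKM in KO and 104 to 124 FPKM in WT libraries. The enterocyte gene Apoa1 ranged over 1728 to 5747 FPKM in KO and 2782 to 5837 FPKM in WT libraries. The labels name no batch, date or sequencing run.

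Immediate early genes are switched on by transcription factors that are already present, chiefly serum response factor with its partners, which answers to the MAP kinase ERK, and CREB, which answers to cyclic AMP and calcium. Some of the products are themselves transcription factors and others are brakes that end the response, acting on kinases or on short-lived mRNA. Wounding, stretch, warming and the cutting or dissociation of tissue are all known to induce them, which is why they are often read as a record of how a sample was handled. In the intestine they also respond to feeding, growth factors and inflammation.

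The CREB element is TGACGTCA, and its core is TGACG. In the 250 bases before the RefSeq transcription start (GRCm38.p6), matched by symbol for 8 of the 10 genes and not for Egr1 or Ier2, the core stood on either strand in 6 (Fos, Fosb, Junb, Atf3, Dusp1 and Btg2), and in 17.8% of 32851 such windows of all genes. The whole element, which contains the core on both strands, stood in 2 (Dusp1 and Btg2) and in 1.55% of all windows. The pattern TGANTCA, with any base at N, covers the common AP-1 element to which Fos and Jun proteins bind. It stood in none of the 8 and in 6.75% of all windows, and other AP-1 variants were not searched. The CArG box of serum response factor stood in 1 (Zfp36) and in 1.47% of all windows. These matches describe letters in a window and not bound sites, and sites further upstream were not searched. The windows of Fos and Atf3, the filter-passing members with the widest range between libraries, and of Dusp1 and Btg2, which hold the whole element, are shown 5′ to 3′ on the strand of the gene, with capitals marking TGACG on either strand. The window of Fos is chr12:85473640-85473889 (plus strand), that of Atf3 chr1:191183334-191183583 (minus), that of Dusp1 chr17:26508473-26508722 (minus) and that of Btg2 chr1:134079156-134079405 (minus).
Fos: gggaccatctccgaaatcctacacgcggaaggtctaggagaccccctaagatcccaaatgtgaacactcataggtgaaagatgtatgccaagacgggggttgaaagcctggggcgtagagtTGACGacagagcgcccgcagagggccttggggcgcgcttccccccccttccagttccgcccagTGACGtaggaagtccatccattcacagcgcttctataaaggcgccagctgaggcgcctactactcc
Atf3: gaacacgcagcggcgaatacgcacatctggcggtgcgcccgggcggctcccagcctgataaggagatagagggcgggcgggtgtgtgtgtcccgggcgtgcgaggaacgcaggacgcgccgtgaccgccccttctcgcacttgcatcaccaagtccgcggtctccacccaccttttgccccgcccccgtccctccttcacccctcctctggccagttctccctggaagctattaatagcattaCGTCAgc
Dusp1: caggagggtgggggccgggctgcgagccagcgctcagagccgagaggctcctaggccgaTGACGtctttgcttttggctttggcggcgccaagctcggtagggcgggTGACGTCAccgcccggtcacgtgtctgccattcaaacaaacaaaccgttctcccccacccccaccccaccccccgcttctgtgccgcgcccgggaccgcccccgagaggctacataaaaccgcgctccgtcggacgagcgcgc
Btg2: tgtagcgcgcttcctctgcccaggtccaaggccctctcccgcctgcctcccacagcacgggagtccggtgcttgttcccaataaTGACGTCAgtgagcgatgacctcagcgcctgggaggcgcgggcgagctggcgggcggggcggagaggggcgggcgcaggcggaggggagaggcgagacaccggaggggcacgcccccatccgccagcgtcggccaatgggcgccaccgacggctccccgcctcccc

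The KO and WT values of all 10 immediate early genes overlapped. Between the 3 KO libraries the range was widest for Fosb (14.9-fold), Fos (5.89-fold), Egr1 (3.67-fold) and Atf3 (3.51-fold) and narrowest for Btg2 (1.54-fold) and Ier2 (1.28-fold). KO1 was the highest of the 6 libraries for 7 of the 10 genes, and KO3 was the lowest for 7 and in the lowest pair for all 10. Among the WT libraries, WT1 was the lowest for 9 of the 10. The share of all tested genes whose groups do not overlap was 8.37%.

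Fos and Fosb encode the partners that Jun proteins need to form the most active AP-1 dimers. Fos stood at 62.8, 26.9 and 10.7 FPKM in KO1, KO2 and KO3, against 11.2, 28.9 and 37.4 FPKM in WT1, WT2 and WT3. Its KO libraries therefore held both the highest and the lowest value of the series, 5.89-fold apart, with all 3 WT values between them. The mean was 33.5 ± 26.7 FPKM in KO and 25.8 ± 13.3 FPKM in WT libraries (SD, n = 3 each), a log2 fold change of 0.19 on the log2(FPKM + 1) scale with a standard error of 0.63. Fosb, a close relative whose shortened form is long-lived in neurons, stood at 2.35, 0.297 and 0.158 FPKM in the KO libraries, against 0.268, 0.494 and 0.581 FPKM in the WT libraries. KO1 alone was high, and the other 5 libraries stayed under 0.6 FPKM. From the length of the longest annotated transcript, these values rest on about 84, 10 and 5 fragments in the KO libraries and 10, 17 and 19 fragments in the WT libraries, so those outside KO1 are imprecise by counting error alone. With a mean of 0.691 FPKM over the 6 libraries, Fosb fell below the filter of 1 FPKM. An exact two-sided permutation test of its 3 against 3 values gave p = 0.9, where 0.1 is the smallest p this design allows.

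Jun and Junb encode the Jun side of AP-1, with Jun the stronger activator of growth and Junb often acting against it. Jun stood at 25.0, 19.0 and 12.1 FPKM in the KO libraries, against 10.9, 22.5 and 19.2 FPKM in the WT libraries. Each group held 1 low library, KO3 and WT1, and the range was about the same in both (2.07-fold in KO and 2.05-fold in WT). Junb stood at 38.7, 22.7 and 18.1 FPKM in the KO libraries, against 25.5, 36.7 and 34.1 FPKM in the WT libraries. KO1 was again the highest, but here KO2 and KO3 both lay below every WT library. The mean of Junb was 26.5 ± 10.8 FPKM in KO and 32.1 ± 5.87 FPKM in WT libraries (SD, n = 3 each), and its log2 fold change of -0.32 (SE 0.26) was the lowest of the 9 tested members.

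Egr1 is a zinc finger transcription factor and a direct target of serum response factor, and Atf3 is a stress-induced factor of the CREB family that mostly represses. Egr1 stood at 5.04, 3.55 and 1.37 FPKM in the KO libraries, against 2.23, 2.77 and 3.57 FPKM in the WT libraries. As with Fos, the KO values enclosed the WT values, and the means were 3.32 ± 1.84 FPKM in KO and 2.86 ± 0.675 FPKM in WT libraries (SD, n = 3 each). Atf3 stood at 7.98, 2.75 and 2.27 FPKM in the KO libraries, against 1.83, 3.54 and 6.51 FPKM in the WT libraries. KO1 and WT3 were high for Atf3 and the other 4 were low, a spread of 3.51-fold within the KO and 3.56-fold within the WT group.

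Ier2 encodes a small nuclear protein and was the member that moved least. It stood at 23.9, 25.2 and 19.6 FPKM in the KO libraries, against 25.6, 23.3 and 24.8 FPKM in the WT libraries. KO3 alone was lower, and the highest value was only 1.31-fold the lowest.

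Dusp1, Zfp36 and Btg2 encode brakes on the response. Dusp1 is a phosphatase that inactivates MAP kinases, and it stood at 6.51, 7.73 and 3.80 FPKM in the KO libraries, against 3.84, 4.45 and 8.23 FPKM in the WT libraries. KO1, KO2 and WT3 were high and the other 3 low, in contrast to Fos, for which KO2 lay in the middle. Zfp36 (tristetraprolin), which binds AU-rich elements and hastens the decay of cytokine mRNA, stood at 63.8, 47.4 and 33.9 FPKM in the KO libraries, against 30.4, 59.7 and 65.8 FPKM in the WT libraries. It was the highest member by mean level (50.2 FPKM over the 6 libraries), and KO3 and WT1 were its low libraries. Btg2, an antiproliferative protein that recruits the mRNA deadenylase, stood at 42.7, 34.0 and 27.7 FPKM in the KO libraries, against 28.0, 31.1 and 29.4 FPKM in the WT libraries. The WT libraries of Btg2 agreed within 1.11-fold, and KO1 and KO2 lay above all of them while KO3 lay below.

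**Figure D1:**
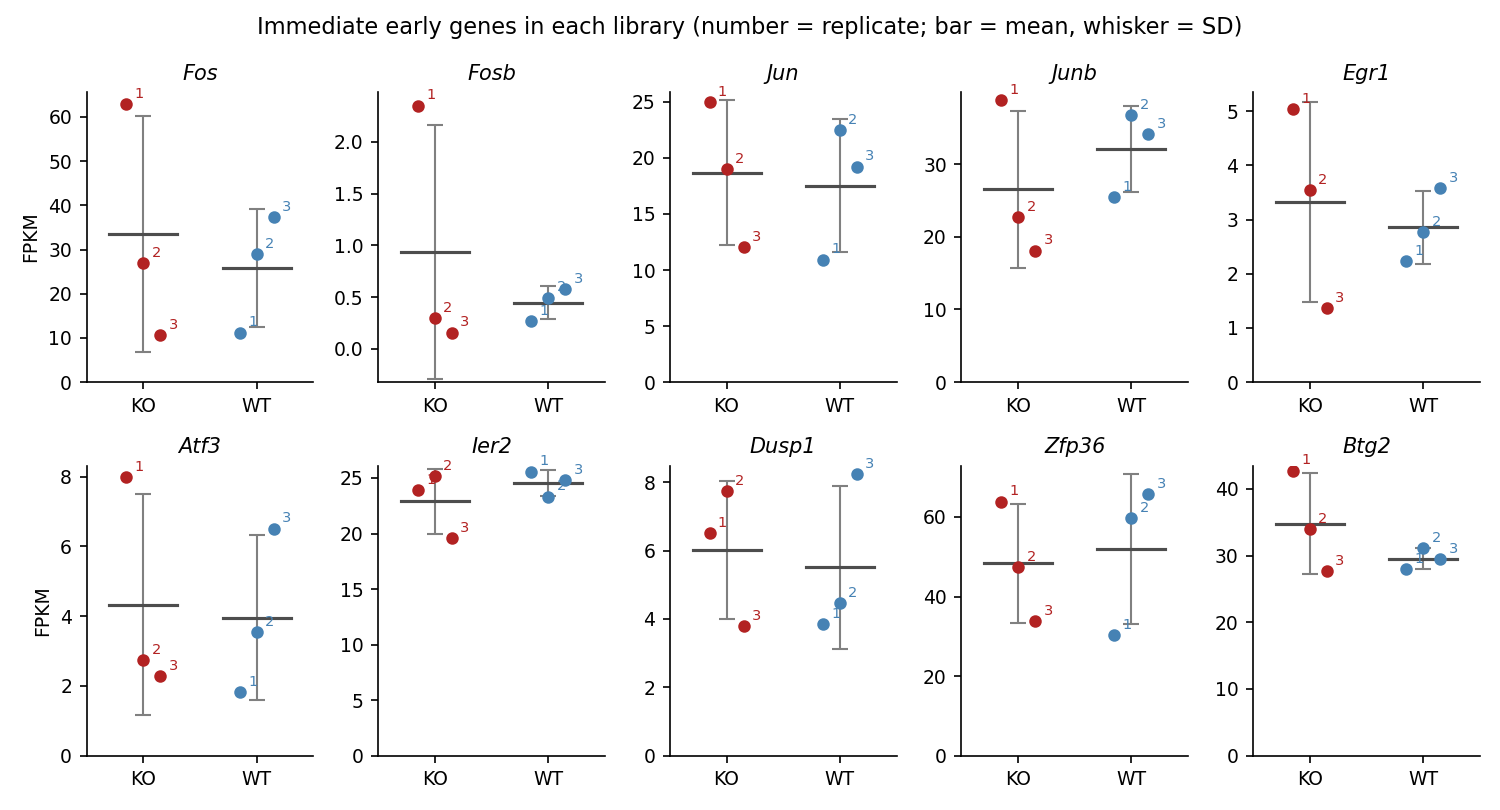
FPKM of the 10 immediate early genes (vertical axes, linear, 1 panel per gene) in the 3 KO and the 3 WT libraries, numbered by replicate, with the group mean as a bar and the SD as a whisker. KO1 is the highest point in 7 panels, KO3 the lowest in 7, and the 2 groups overlap in every panel.

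Between the groups, none of the 9 tested members differed beyond the spread between mice. With limma on log2(FPKM + 1), fitted over the 12695 genes that averaged 1 FPKM or more, each of the 9 had an adjusted p = 0.998, and 0 of the 9 had an unadjusted p under 0.05. The background was 0% of all tested genes at an adjusted p under 0.05 and 3.62% at an unadjusted p under 0.05. The estimates were above 0 for 6 members and below 0 for 3, where 58.4% of all tested genes had an estimate above 0. The members' median log2 fold change was 0.07, against 0.03 over all tested genes. After Junb, the estimates furthest from 0 were those of Btg2 (0.21, SE 0.15) and Fos (0.19, SE 0.63). The remaining ones were 0.12 for Dusp1 (SE 0.29), 0.09 for Jun (SE 0.31), 0.07 for Egr1 (SE 0.32), 0.06 for Atf3 (SE 0.45), -0.07 for Zfp36 (SE 0.32) and -0.10 for Ier2 (SE 0.11). A missed threshold does not show that the groups were alike: for Fos, changes well over 1.5-fold in either direction lie within 2 standard errors.

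Leaving out 1 library changed the sign of the difference for 6 of the 9. Without KO1, the log2 fold change of Fos was -0.42, that of Atf3 -0.39, that of Egr1 -0.22 and that of Jun -0.14. Without KO3 instead, the same genes stood at 0.81, 0.34, 0.46 and 0.36. Leaving out WT1 also put Fos (-0.30), Atf3 (-0.28), Jun (-0.20), Egr1 (-0.05) and Dusp1 (-0.06) below 0, and leaving out KO2 put Dusp1 at -0.06 and Egr1 at -0.014. Zfp36 was above 0 without KO3 (0.16), WT2 (0.06) or WT3 (0.13). Junb and Ier2 stayed below 0 and Btg2 above 0 with each library left out in turn. Junb ran from -0.62 without KO1 to -0.09 without KO3, and Btg2 from 0.06 without KO1 to 0.36 without KO3. No member passed the threshold in any of these fits.

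**Figure D2:**
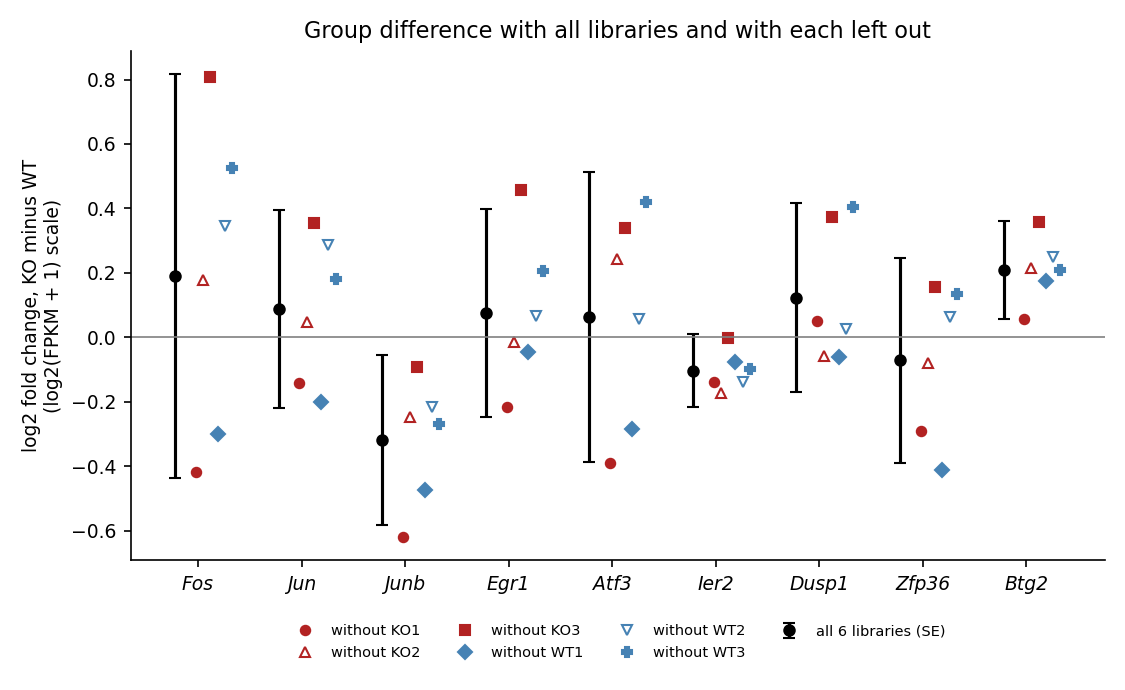
Log2 fold change of KO minus WT on the log2(FPKM + 1) scale (vertical axis) for the 9 tested immediate early genes, with all 6 libraries (black, whisker = SE) and with each library left out. For Fos the values run from -0.42 without KO1 to 0.81 without KO3, and only Junb, Ier2 and Btg2 keep their side of 0 throughout.

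Most of these genes had a wide spread between libraries of the same group. The residual SD of Fos within groups was 1.06 on the log2(FPKM + 1) scale, against a median of 0.16 over all tested genes, and lay at the 99.5th percentile. Atf3 lay at the 99.0th percentile, Zfp36 and Egr1 at the 97.6th, Jun at the 97.5th, Dusp1 at the 96.9th and Junb at the 95.8th. These 7 of 9 lay above the 95th percentile, which holds 5% of tested genes. Btg2 lay at the 72.1st percentile and Ier2 at the 38.0th. Wide spread was not limited to them. All 10 B cell markers, 5 of 7 tested enterocyte markers and 4 of 11 heat shock genes also lay above the 95th percentile. Among genes with a mean at least as high as its own, Fos was at the 98.8th percentile and Zfp36 at the 95.6th, while Junb, at the 94.2nd, was below the 95th. The members share the same 6 libraries, so their positions are not separate observations.

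**Figure D3:**
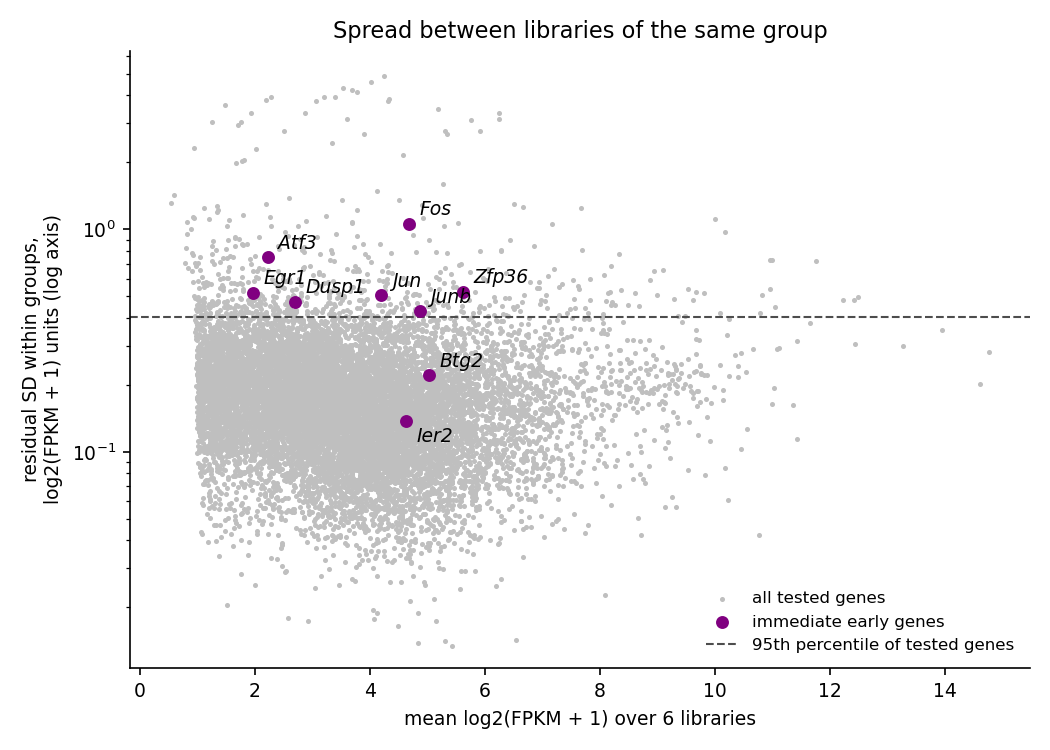
Residual SD within groups (vertical log axis, log2(FPKM + 1) units) against mean log2(FPKM + 1) over the 6 libraries (horizontal axis) for all 12695 tested genes (grey) and the 9 tested immediate early genes (purple). Of the 9, 7 lie above the dashed 95th percentile, with Fos the highest at 1.06, while Btg2 and Ier2 lie within the bulk.

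Each library can be read by the mean of the 9 tested members on the log2(FPKM + 1) scale, relative to each gene's mean over the 6 libraries. This level was 0.54 in KO1, 0.05 in KO2 and -0.54 in KO3, against -0.44 in WT1, 0.09 in WT2 and 0.31 in WT3. From high to low the order was KO1, WT3, WT2, KO2, WT1 and KO3, with the genotypes intermixed. The summed FPKM of all 10 members followed the same order, with 279, 189 and 130 in the KO libraries and 140, 213 and 230 in the WT libraries.

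The summed FPKM of absorptive enterocyte markers, most of it Apoa1 and Apoa4, put the 6 libraries in that order too. The 8 markers (Fabp6, Slc10a2, Apoa1, Apoa4, Vil1, Alpi, Lct and Slc51a), all above 0 in every library, summed to 9251, 4736 and 3120 FPKM in KO1, KO2 and KO3, against 4419, 7225 and 8721 FPKM in WT1, WT2 and WT3. Apoa1, an apolipoprotein of fat absorption, had 5747, 2788 and 1728 FPKM in the KO libraries and 2782, 3958 and 5837 FPKM in the WT libraries. Alpi, the brush border alkaline phosphatase, had 193, 112 and 101 FPKM in the KO libraries and 105, 146 and 179 FPKM in the WT libraries. KO1 and WT3 were high for both. Other markers departed from this: Slc51a, a bile acid transporter subunit, had 103, 111 and 136 FPKM in the KO libraries and 120, 104 and 124 FPKM in the WT libraries, the reverse within KO, and Fabp6 was lower in KO1 (0.316 FPKM) than in KO3 (2.41 FPKM). The mean over the 7 tested markers on the scale of the member level was 0.28, -0.21 and -0.42 in KO1, KO2 and KO3, against -0.28, 0.0045 and 0.63 in WT1, WT2 and WT3, so that WT3 and not KO1 came first. In whole tissue, fewer cells of a type and less RNA per cell cannot be told apart, and the part of enterocyte content in the levels of the immediate early genes was not tested.

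Genes outside the list whose profile over the 6 libraries lay nearest to the mean profile of the members were Slc25a22, Scimp, Slc6a8, Ston2, Tlcd2, Treh, Stk10 and Ccdc120, at a root-mean-square distance of 0.07 to 0.12 on the log2(FPKM + 1) scale. Slc6a8, the creatine transporter, stood at 173, 116 and 92.6 FPKM in the KO libraries and at 86.0, 143 and 159 FPKM in the WT libraries. Treh, the brush border enzyme that splits trehalose, stood at 96.1, 63.4 and 44.5 FPKM in the KO libraries and at 51.2, 80.7 and 73.6 FPKM in the WT libraries. Both were high in KO1 and low in KO3 and WT1. Among the members, Egr1 (0.14), Zfp36 and Jun (0.15 each) lay nearest to the mean profile, while Fos, which put the libraries in the same order over a larger range, lay farthest (0.49). Each member is itself part of that mean. Even so, many named genes outside the list lay nearer to it: 25 nearer than Egr1, 28 than Zfp36 and 32 than Jun. For Junb, Btg2, Dusp1 and Atf3 the numbers were 158, 311, 379 and 666, and for Ier2 and Fos 1619 and 8495. This distance depends on the size of the changes as well as on the order of the libraries. A gene that did not vary at all would also count as nearer than Fos, so the number for Fos does not count genes of like profile.

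Heat shock genes, which encode chaperones induced by warming and protein damage, followed another order of libraries. Of 11 tested, 0 passed the threshold, 2 estimates were above 0 and 9 below, and the median log2 fold change was -0.21. Over all 12695 tested genes 0 passed too, 58.4% of estimates were above 0 and the median was 0.03. The heat shock median was 0.18 with array weights, and with 1 library left out it ran from -0.42 (without WT2) to -0.03 (without KO1). Hspa8, the constitutive chaperone, stood at 533, 760 and 645 FPKM in the KO libraries and at 743, 599 and 829 FPKM in the WT libraries. Hspb1, a small chaperone, stood at 9.04, 14.0 and 10.2 FPKM in the KO libraries and at 14.2, 11.4 and 25.1 FPKM in the WT libraries. KO1, the highest library for most immediate early genes, had the lowest Hspa8 and Hspb1 of the 6, whereas WT3 was the highest for both. The mitochondrial chaperone Hspd1 stood at 104, 155 and 165 FPKM in the KO libraries and at 157, 137 and 115 FPKM in the WT libraries. Hspa1b and Hspa1a had the widest spread of the list, at the 99.7th and 99.5th percentiles. Hspa1a stood at 0.715, 3.27 and 0.649 FPKM in the KO libraries and at 1.22, 1.13 and 10.05 FPKM in the WT libraries. Hspa1b stood at 1.57, 11.5 and 2.72 FPKM in the KO libraries and at 3.30, 2.67 and 24.5 FPKM in the WT libraries. For Hspa1a and Hspa1b alike, WT3 was the highest library and KO2 the next.

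**Figure D4:**
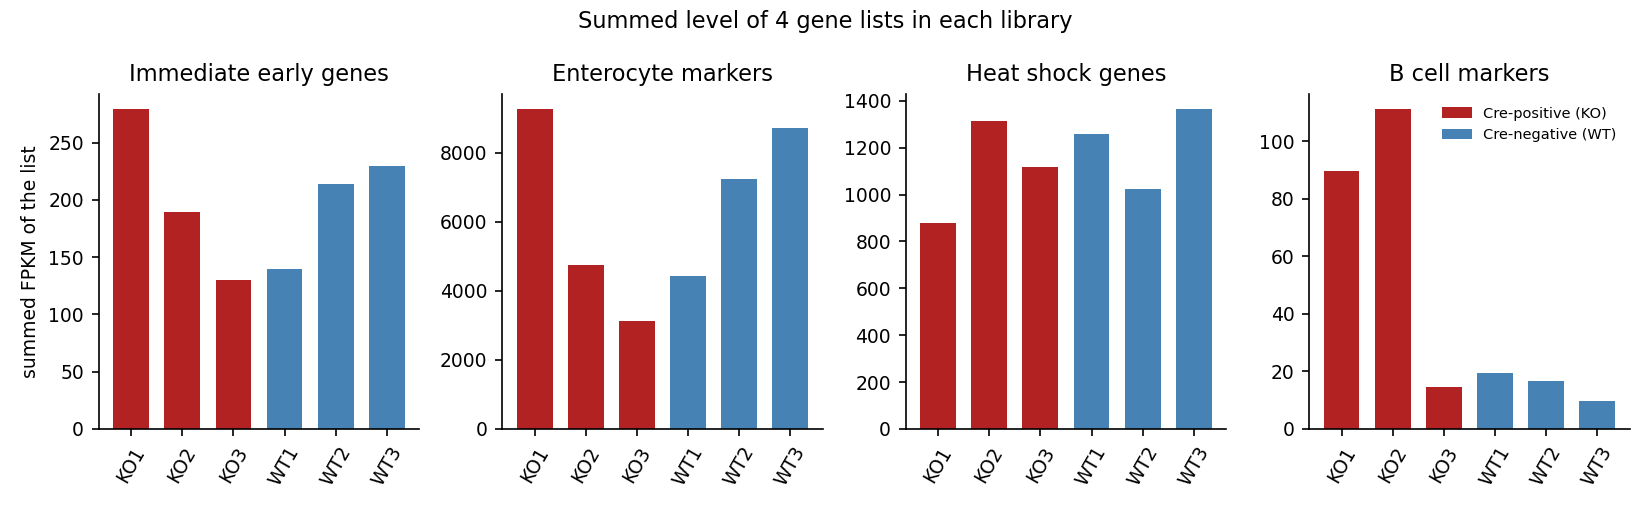
Summed FPKM (vertical axes, linear) of the immediate early genes, the enterocyte markers, the heat shock genes and the B cell markers in each library, KO in red and WT in blue. The first 2 panels share the order KO1, WT3, WT2, KO2, WT1, KO3, the heat shock genes are lowest in KO1, and the B cell markers are high in KO1 and KO2 alone. Most of the heat shock sum is the constitutive Hspa8.

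Other genes of the early response had a median spread at the 78.1st percentile, against the 97.5th for the 9 members. Of 44 listed, 39 were tested, 0 passed the threshold, 20 estimates were above 0 and 19 below, with a median log2 fold change of 0.01. An unadjusted p under 0.05 was found for 3 of the 39 (Sik1, Dusp2 and Nfkbia, all higher in KO), against 3.62% of all tested genes. The groups did not overlap for 3 of the 39 (Sik1, Dusp2 and the DNA damage response gene Gadd45a), against 8.37% of all tested genes. A spread above the 95th percentile was found for 8 of the 39. Klf4, a transcription factor of differentiated epithelium, stood at 56.0, 38.7 and 23.2 FPKM in the KO libraries and at 28.0, 56.2 and 65.9 FPKM in the WT libraries. Fosl2, a Fos relative, stood at 59.9, 45.0 and 35.4 FPKM in the KO libraries and at 35.2, 53.7 and 68.3 FPKM in the WT libraries. For both genes KO3 and WT1 were the low libraries, as for Jun. Sgk1, a kinase induced by serum and glucocorticoids, had its lowest value in WT1 (122, 94.3 and 72.7 FPKM in KO libraries, against 27.1, 75.9 and 121 FPKM in WT libraries). Jund, the constitutive Jun relative, ranged over 41.7 to 51.4 FPKM in KO and 47.1 to 48.8 FPKM in WT libraries. Klf6 (38.4 to 56.6 FPKM in KO, 41.5 to 57.7 in WT), Mcl1 (69.1 to 94.98 in KO, 74.1 to 97.9 in WT) and Zfp36l2 (46.4 to 55.6 in KO, 41.2 to 49.2 in WT) were also abundant with modest ranges. Socs3, a feedback inhibitor of cytokine signalling, reached 33.4 FPKM in WT2, against 7.40 to 11.3 FPKM in KO libraries and 8.98 and 16.9 FPKM in WT1 and WT3.

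Dusp2, a nuclear MAP kinase phosphatase found mainly in lymphocytes, stood at 2.96, 2.47 and 0.710 FPKM in the KO libraries and at 0.607, 0.554 and 0.653 FPKM in the WT libraries (log2 fold change 0.84, SE 0.30). It was high in KO1 and KO2 only, and it passed the threshold without KO3 (adjusted p = 0.0292 in limma, log2 fold change 1.21). The 10 B cell markers, all tested and all with estimates above 0, summed to 89.4, 111 and 14.7 FPKM in the KO libraries, against 19.4, 16.7 and 9.75 FPKM in the WT libraries. Pax5 was at 0 in KO3, WT2 and WT3, and Fcer2a at 0 in WT2. KO1 and KO2 were also the highest libraries for Btg2, and the part of B cell content in Dusp2 or Btg2 was not tested. Sik1, a salt-inducible kinase and CREB target, stood at 7.69, 7.88 and 6.47 FPKM in KO and 5.69, 5.42 and 5.57 FPKM in WT libraries (0.34, SE 0.11, limma adjusted p = 0.998). Nfkbia, the inhibitor of NF-kB, stood at 66.2, 59.9 and 48.1 FPKM in KO and at 43.9, 46.9 and 48.4 FPKM in WT libraries (0.31, SE 0.13), and its groups overlapped. On the lower side, Dusp4 (-0.20) and Maff (-0.19) did not pass the threshold either.

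Of 19 upstream kinases and factors tested, 0 passed the threshold and the estimates ran from -0.09 to 0.27. None had a spread above the 95th percentile, the widest being Elk3 (3.38 to 5.92 FPKM in KO, 3.14 to 3.82 FPKM in WT libraries). The groups did not overlap for 2 of the 19 (Mkl1 and Braf, both higher in KO), against 8.37% of all tested genes. Mapk3, which encodes the kinase ERK1, stood at 141, 125 and 126 FPKM in the KO libraries and at 131, 138 and 136 FPKM in the WT libraries. Rps6ka1, a kinase that ERK activates, ranged over 78.6 to 89.9 FPKM in KO and 76.4 to 86.5 FPKM in WT libraries, and Mkl2, a cofactor of serum response factor, over 20.7 to 24.5 FPKM in KO and 17.3 to 20.9 FPKM in WT libraries. These are mRNA levels, and kinase activity was not measured. Among 9 inflammatory mRNAs that Zfp36 is known to bind, 3 passed the filter (Tnf, Il1b and Ptgs2) and 0 the threshold. Tnf stood at 1.29, 1.31 and 1.08 FPKM in the KO libraries and at 1.32, 1.15 and 0.638 FPKM in the WT libraries, and Il1b ranged over 1.56 to 2.07 FPKM in KO and 1.55 to 2.63 FPKM in WT libraries.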

How the data were processed

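Groups and replicate numbers came from the sample labels, and table columns were matched to samples by genotype and number. The authors deposited 1 table of FPKM values. Per the submitters' processing notes, the tools were Cufflinks and Cuffnorm, STAR, SAMtools, bedtools, Trimmomatic and FastQC, with the builds GRCm38 and mm10. Not given in the sources used here are versions, how libraries were scaled to each other and whether strand was used. Jun, Junb, Atf3, Dusp1 and Zfp36 overlap other annotated genes (GENCODE M21), so their values are less certain. Of 9 mitochondrially encoded genes looked up by symbol, 0 were found in the deposited table, so none could be analysed.

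FPKM values are not counts, so limma's moderated test (eBayes with trend) was run on log2(FPKM + 1), two-sided, over the 12695 genes that averaged 1 FPKM or more. P values were adjusted by Benjamini-Hochberg and called under 0.05. This scale understates changes of low genes. Spread was limma's residual SD, ranked over all tested genes. The procedure was also run on simulated data. The simulated noise was independent between genes, whereas the members varied together by library, so nothing about the members is concluded from it. The fit reported did not pair libraries by replicate number, and whether the numbers pair the mice was not settled. Nothing in the labels says the mice were otherwise matched.

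The members and lists were chosen with earlier results of these data known. Genes were named by a rule: all members, the most abundant and smallest-p genes of the other lists, and the 8 nearest profiles. Ptgs2, Alpi, Apoa1, Apoa4, Fabp6, Slc10a2, Pax5, Fcer2a, Slc51a, Elk3, Mkl1, Braf, Lyz1, Gadd45a, Hspa1a and Hspa1b were named outside it, after their values were seen. Depth was estimated from the steps of values under 0.6 FPKM in genes with 1 transcript of over 1500 bases, and fragment numbers cover counting error only. Fits used limma 3.58.1 in R 4.3.3. Tables used pandas 2.3.3 and numpy 2.4.6 in Python 3.11.15, and figures matplotlib 3.10.9.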

Additional observations from a re-analysis of the deposited data

How the results depend on the processing

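No immediate early gene passed the threshold under any of the 17 alternatives, and the smallest adjusted p was 0.119 (Junb, array weights). Over all genes, 0 passed in the fit reported (459 had an unadjusted p under 0.05), 2 with a pseudocount of 0.1, 2 with a pseudocount of 5, 24 with array weights, 2 with libraries scaled to equal sums, and 0 to 46 with 1 library left out (46 without KO3). Of the other early response genes, 0 to 1 passed with 1 library left out. With the replicate number as a block, 1 gene passed and no member. Deviations from the group mean in same-numbered KO and WT libraries correlated at -0.13, 0.03 and -0.11, which cannot exclude a pairing of the mice. Array weights put the heat shock median at 0.18 and Junb at -0.58 and turned Fos to -0.10, Jun to -0.21, Atf3 to -0.13 and Ier2 to 0.016, and equal sums, which put the median over all genes at 0.13, turned Ier2 to 0.0061 and Zfp36 to 0.040; the cause was not tested. With 1 library left out, Fos ran from -0.42 to 0.81, Jun from -0.20 to 0.36, Egr1 from -0.22 to 0.46, Atf3 from -0.39 to 0.42, Dusp1 from -0.061 to 0.40, Zfp36 from -0.41 to 0.16 and the members' median from -0.22 to 0.36. Without the filter Fosb had a log2 fold change of 0.25 (SE 0.39). The median spread percentile of the members, 97.5, ran from 95.7 to 98.2, a check chosen after seeing the data. Library levels were recomputed under the 7 pseudocount, filter and scaling alternatives, and among those their order changed only with equal sums, where KO2 passed WT2 and WT1 fell below KO3.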

Other observations

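Of 16 other lists, the enterocyte markers were the only one whose summed FPKM put the 6 libraries in exactly the order of the immediate early genes. That sum is mostly Apoa1 and Apoa4. The order of the other early response genes differed only in that WT1 (689 FPKM) came below KO3 (710 FPKM). T cell markers (7 of 8 in the table) summed to 48.5, 43.0 and 23.1 FPKM in the KO libraries and to 30.0, 33.2 and 30.7 FPKM in the WT libraries, with KO3 the lowest. Smooth muscle markers (781, 621 and 728 FPKM in KO, 953, 754 and 714 FPKM in WT libraries) and fibroblast markers (292, 265 and 272 in KO, 302, 245 and 205 in WT) summed highest in WT1, a library low in immediate early genes. Crypt epithelium markers summed to 7709, 4430 and 5261 FPKM in the KO and 9310, 5045 and 5922 FPKM in the WT libraries, most of it Lyz1, and on the mean-centred log2 scale KO3 (0.20) and WT1 (0.19) were highest. Macrophage markers (5 of 6 in the table) ranged over 133 to 176 FPKM in KO and 132 to 166 FPKM in WT libraries, and neutrophil markers over 10.4 to 12.3 FPKM in KO and 9.32 to 16.1 FPKM in WT libraries. Adipocyte markers ranged over 52.9 to 64.1 FPKM in KO and 62.1 to 105 FPKM in WT libraries, and endothelial markers over 33.0 to 59.8 FPKM in KO and 32.3 to 42.0 FPKM in WT libraries. Mast cell markers ranged over 12.5 to 19.6 FPKM in KO and 11.5 to 15.7 FPKM in WT libraries, and enteric neuron and glia markers over 12.7 to 14.3 FPKM in KO and 11.4 to 17.9 FPKM in WT libraries. None of their members passed the threshold by limma.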
